A study of Oryctolagus cuniculus with 6 samples.

Results

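Human particulated dentin (HPD), ground human dentin placed as a graft in rabbit skull defects, was compared with unfilled defects on day 5 of healing, using the array labelled HPD day 5 and the array labelled control day 5. These are 2 of the 6 arrays in the study. Probes entered the comparison when they were neither control nor outlier spots and read well above background on both arrays, which left 34947 of 43603 probes and, with 1 probe kept for each gene or array gene identifier, 19180 of 23290 features, of which 9043 carry a gene symbol. Many probes without a symbol are their own identifier and overlap in sequence, so 1 unnamed transcript can count as several features. The study made circular parietal defects 5 mm wide in 24 male New Zealand White rabbits, aged 4 months. The defects on the right received 0.2 g of HPD and the others stayed empty, so grafted and control defects lay in the same animals. Newly formed tissue was taken on days 3, 5 and 7, with 1 array for each treatment and day. The labels do not say how many animals or defects contributed RNA to an array. The design text also mentions blood, while every sample is labelled as newly formed tissue. With n = 1 on each side no test of the treatment is possible, and all day 5 values are descriptions of this pair of arrays.

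A calvarial defect first fills with a clot that is invaded by neutrophils and then by macrophages. Granulation tissue follows, and osteoblasts deposit a collagen matrix that is mineralised with the help of acidic proteins such as bone sialoprotein and dentin matrix protein. The same early tissue is poor in oxygen, and cells in it use the hypoxia-inducible factor (HIF) pathway to switch on glycolytic enzymes.

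A level is given as log2 of the background-subtracted intensity minus the log2 of its array's 75th percentile, so 0 is the signal of a moderately bright probe. A difference is the HPD level minus the control level, and 1 unit is a factor of 2. Levels are compared between arrays for the same probe and not between probes. The scanner software's own error of such a difference had a median of 0.21, and probes spotted 5 times on an array varied with a median SD of 0.08 on both arrays. A 2-fold difference is larger than either, but the variation between animals was not measured.

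The probes below show where the values come from. They are the 60-base array sequences of genes that define both ends of the comparison, written 5' to 3', with positions on the rabbit build oryCun2 as the deposited files give them.
The EGLN3 probe, at chr17:53707160-53708043 on the minus strand, covers 60 bases spread over 884 bases of genome, so its bases are not contiguous there.
EGLN3: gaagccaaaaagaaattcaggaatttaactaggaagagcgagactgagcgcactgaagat
The CXCL8 probe lies at chr15:76370125-76370632 on the minus strand, again over more than 60 bases of genome.
CXCL8: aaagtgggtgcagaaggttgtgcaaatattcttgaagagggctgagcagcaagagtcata
The ARG1 probe lies at chr12:121810462-121810521 on the plus strand.
ARG1: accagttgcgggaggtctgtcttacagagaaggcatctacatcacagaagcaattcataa
The S100A8 probe lies at chr13:39004945-39005004 on the plus strand, and capitals mark codons of a calcium-binding loop of the EF-hand kind.
S100A8: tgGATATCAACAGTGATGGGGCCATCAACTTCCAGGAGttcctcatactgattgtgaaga
The IBSP probe lies at chr15:62360093-62360152 on the minus strand, and capitals mark codons of its integrin-binding motif.
IBSP: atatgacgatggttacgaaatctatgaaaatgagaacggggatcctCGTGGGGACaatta
The DMP1 probe lies at chr15:62507160-62507219 on the minus strand.
DMP1: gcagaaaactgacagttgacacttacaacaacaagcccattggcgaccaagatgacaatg
The OMD probe lies at chr1:70282499-70282558 on the minus strand, and capitals mark codons of acidic amino acids.
OMD: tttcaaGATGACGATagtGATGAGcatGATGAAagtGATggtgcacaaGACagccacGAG
The DLX5 probe lies at chr10:32242012-32242071 on the plus strand, and capitals mark codons of the recognition helix of the homeodomain.
DLX5: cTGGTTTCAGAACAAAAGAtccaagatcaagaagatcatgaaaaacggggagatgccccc

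Of the 19180 features, 939 were at least 2-fold higher with HPD (4.9%) and 323 were at least 2-fold lower (1.68%), together 6.58%. Among named genes the counts were 343 higher (3.79%) and 154 lower (1.7%). With unnamed probes that share 30 or more bases merged, a step chosen after seeing the data, 766 of 17278 features were higher and 287 lower. At 4-fold, 112 features were higher and 38 lower. The median difference over all features was 0.10, the 5th and 95th percentiles were -0.62 and 0.99, and this is the background for every list below. Over 38 gene lists, 686 genes were measured on both arrays, of which 78 were at least 2-fold higher and 32 lower, with a median of 0.15. Lists of inflammation, leukocytes, oxygen shortage and lipid handling held most of their 2-fold members on the higher side, and lists of mineralising matrix, of TGF-beta and BMP and of Wnt signals on the lower side. The leukocyte, hypoxia and lipid lists were all higher on the same array, and their part in one another was not tested. In such tissue, fewer cells of a type and less RNA per cell cannot be told apart.

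**Figure D1:**
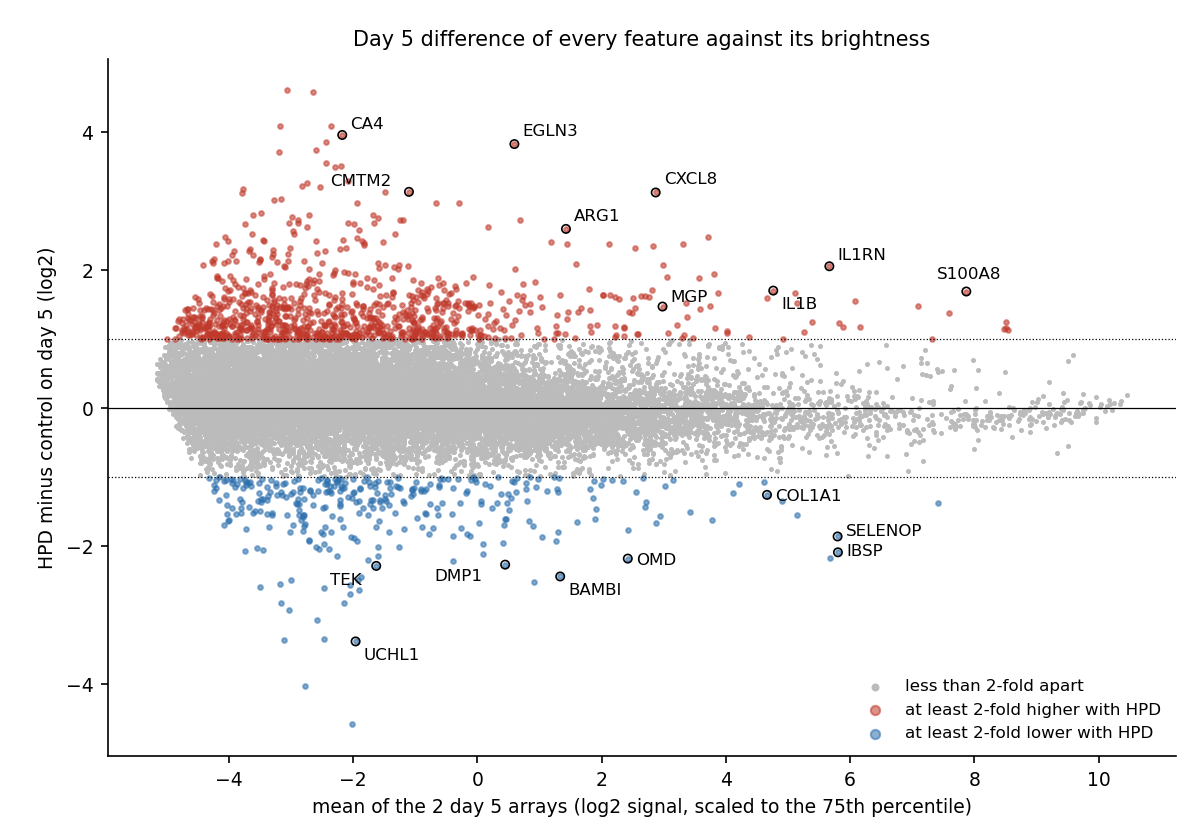
Difference between the HPD and the control array on day 5 (log2, vertical axis) against the mean level of both (log2, relative to each array's 75th percentile), 1 point for each of 19180 features. Features at least 2-fold higher (939) and lower (323) are coloured and some genes of the text are labelled, EGLN3 and CXCL8 above and DMP1, OMD and IBSP below.

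Genes of oxygen shortage and sugar breakdown stood higher on the HPD array as a group. Of 39 members measured on both arrays, 9 were at least 2-fold higher (23.1%, against 4.9% of all features) and 0 lower, 34 lay above 0, and the median difference was 0.75, against 0.10 for all features. EGLN3, a prolyl hydroxylase that marks HIF for degradation and is itself switched on by HIF, read 2.51 on the HPD array and -1.32 on the control array. That is a 14.2-fold higher signal, and its 5 probes, whose starts lie within 4 bases of each other, gave differences of 3.83 to 4.00, with 3.97 for the one printed above. CA4, a carbonic anhydrase anchored to the cell surface, read -0.19 with HPD and -4.15 in the control, a difference of 3.96 on 1 probe and the largest of the list. Its control signal was dim. Under another background correction (normexp with an offset of 50) the CA4 difference was 2.01, below the 3.33 of EGLN3. Both genes were also higher with HPD on day 3, EGLN3 at 2.03 against -0.55 and CA4 at -1.20 against -3.59.

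The enzymes of glycolysis differed by less but at bright signals. GAPDH read 7.62 on the HPD array and 6.78 on the control array, GPI, glucose-6-phosphate isomerase, 3.62 and 2.53, and ENO2, an enolase, 2.08 and 1.06. GPI and ENO2 were at least 2-fold higher and GAPDH was 1.79-fold higher, so GAPDH was not level between the arrays. ACTB, the other common reference, read 9.55 with HPD and 9.43 in the control. HK2, the first enzyme of the pathway, and SLC2A3, a glucose transporter, were 2.19-fold and 2.95-fold higher at dim signals. Under normexp with an offset of 50 their differences were 0.13 and 0.35. ADM, the vessel-dilating peptide adrenomedullin, gave 1.47 and 0.38 in the same way. BNIP3L, which helps remove mitochondria, read 4.58 with HPD and 3.46 in the control on day 5, while on day 3 it read 1.6 and 2.67. HIF1A, the transcription factor itself, differed by 0.14 (1.94 with HPD and 1.80 in the control). P4HA2, a collagen prolyl hydroxylase and HIF target, was the lowest of the list at -0.70. The 21 genes of mitochondrial energy metabolism had a median difference of -0.12, with 0 at least 2-fold apart.

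Chemokines for neutrophils and monocytes were higher with HPD. Of 11 members measured, 5 were at least 2-fold higher and 1 lower, with a median difference of 0.64. Under normexp this median came to 0.08, against -0.09 for all features. CXCL8, the chief neutrophil attractant, read 4.44 on the HPD array and 1.31 on the control array, 8.74-fold higher, and its 7 probes gave 2.37 to 3.19, the highest on the probe printed above. CXCL5, from the same family, read 2.39 with HPD and -0.03 in the control (5.32-fold, 6 probes from 2.41 to 3.44). The monocyte attractants CCL4, at 4.00 with HPD and 1.65 in the control, and CCL2, at 3.11 and 2.04, were 5.10-fold and 2.10-fold higher. CCL5, which draws T cells, was 2.87-fold higher. CCL27, known as a skin chemokine, ran the other way at 2.64 with HPD and 3.68 in the control. Across the days CXCL8 read 4.25 with HPD and 3.41 in the control on day 3, and 1.24 with HPD and -0.68 in the control on day 7, so that its day 5 gap was wider than on either other day.

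Of 30 cytokines, 8 were at least 2-fold higher and 0 lower, with a median of 0.39. Under normexp this median came to 0.04, against -0.09 for all features. IL1B, interleukin-1 beta, read 5.62 on the HPD array and 3.91 on the control array. Its receptor antagonist IL1RN read 6.70 with HPD and 4.64 in the control, and the decoy receptor IL1R2 3.32 and 0.93. The ligand and these blockers of its signal were therefore higher together, by 3.26-fold, 4.16-fold and 5.23-fold. IFNG, interferon gamma, was 2.99-fold higher (3.08 with HPD and 1.5 in the control), IL12B, a subunit of interleukins 12 and 23, 2.79-fold, and LTB, lymphotoxin beta, 2.35-fold. LIF, a cytokine of the interleukin-6 family, had a difference of 1.37. IL19 had the largest difference of the list, 3.18, at levels of -2.19 with HPD and -5.36 in the control, and it came to 0.74 under normexp. TNF read -0.52 with HPD and -1.47 in the control, a difference of 0.95, the lowest of its 5 probes, which ran up to 1.73. IL6 read -0.17 with HPD and 0.13 in the control, and its 5 probes lay between -0.32 and -0.29, so IL6 did not follow IL1B and CXCL8. IL10, the anti-inflammatory cytokine, was dim on both arrays (-4.36 with HPD and -4.53 in the control).

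Among 26 cytokine and chemokine receptors 5 were at least 2-fold higher and 0 lower, with a median of 0.27. Under normexp this median came to 0.04, against -0.09 for all features. CXCR4, the receptor that keeps leukocytes and progenitors in marrow, was 2.85-fold higher, with 5 probes between 1.48 and 1.53, and CXCR5, a receptor of B cells and helper T cells, 3.53-fold higher. The enzymes that process arginine, tryptophan and arachidonic acid showed the same direction, with 5 of 17 at least 2-fold higher and 0 lower. ARG1, which splits arginine and marks alternatively activated macrophages in mice, read 2.73 with HPD and 0.13 in the control, 6.06-fold higher over 4 probes from 2.45 to 2.61. IDO1 and KMO, enzymes of tryptophan breakdown, read 1.85 and 0.36 with HPD, against 0.02 and -1.46 in the control. IDO2 was dimmer (-2.90 with HPD and -4.57 in the control). ALOX5AP, needed for leukotriene synthesis, was 2.24-fold higher, and PTGS2, the inducible cyclooxygenase, was 1.92-fold higher. FOS, an immediate-early transcription factor, and ANXA8, an annexin, were also among the 15 named genes with the largest higher differences, at 2.63 and 2.02.

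**Figure D2:**
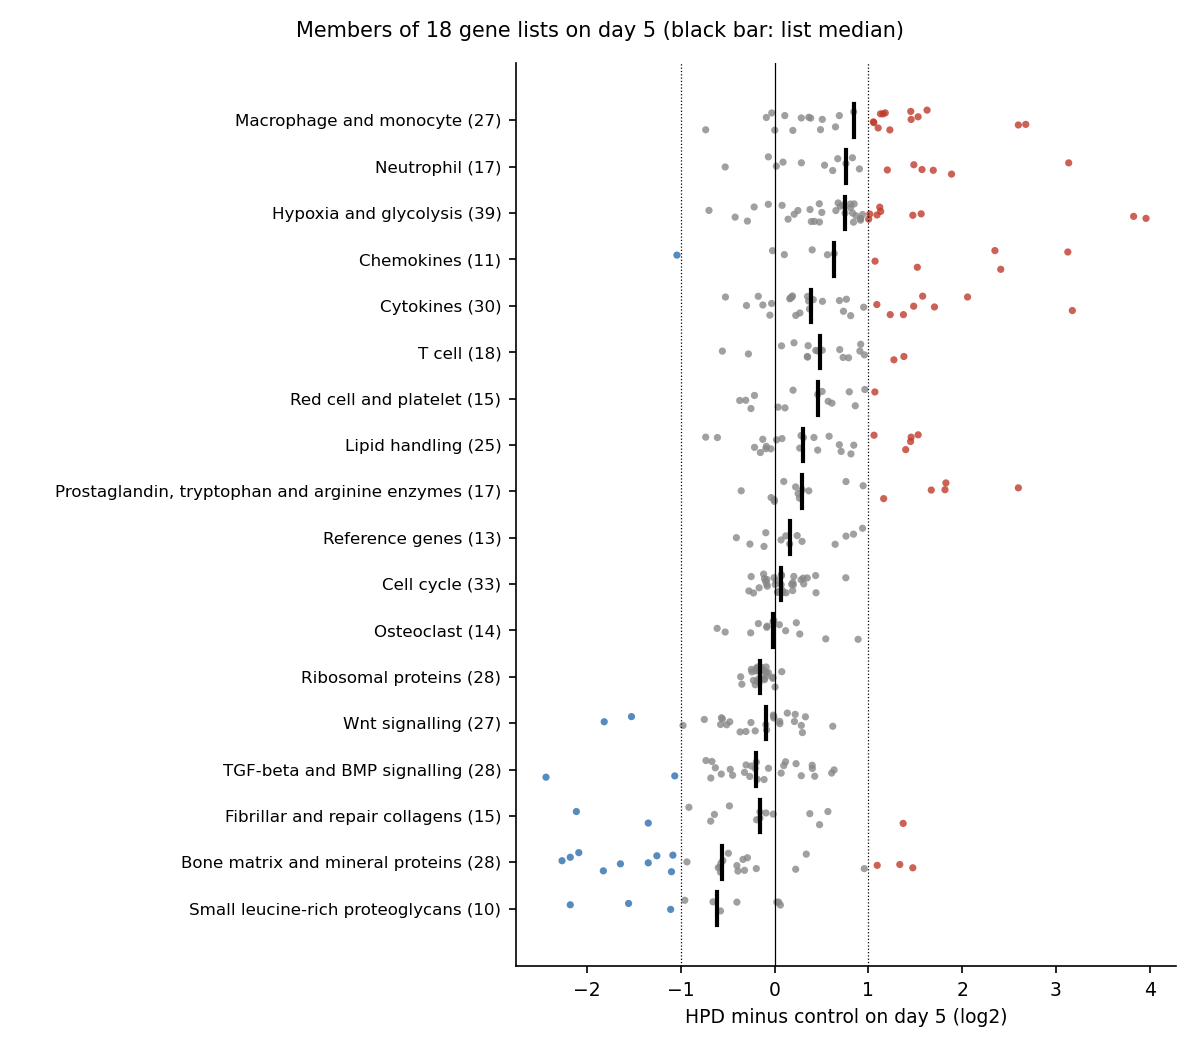
Day 5 differences (HPD minus control, log2, horizontal axis) of the members of 18 gene lists, 1 point a gene, with the number measured in brackets, black bars at the medians and dotted lines at 2-fold. Macrophage, neutrophil and hypoxia medians stand at 0.84, 0.76 and 0.75, bone matrix and small leucine-rich proteoglycans at -0.56 and -0.62, and the 33 cell cycle genes all lie within 2-fold.

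Most markers of neutrophils and of macrophages were higher with HPD. At least 2-fold higher were 6 of 17 neutrophil genes (35.3%, against 4.9% of all features), with a median of 0.76, and 13 of 27 genes of macrophages and monocytes (48.1%), with a median of 0.84, and 0 were lower in either list. The summed linear level of the neutrophil list was 737 on the HPD array and 320 on the control array, and that of the macrophage list 291 and 140. Such sums follow the brightest probes. S100A8 and S100A9 made up most of the neutrophil sums, and LGALS3 and MMP12 most of the macrophage sums. S100A8 and S100A9, the subunits of calprotectin, read 8.72 and 7.83 with HPD, against 7.02 and 6.35 in the control, 3.23-fold and 2.80-fold higher. All 10 S100A8 probes lay between 1.62 and 1.75. CMTM2 (8.80-fold) and FPR1, a receptor for bacterial peptides (3.70-fold), were also among them. The CMTM2 value is the highest of its 5 probes, which ran from 1.06 to 3.14 with a mean of 1.85. MPO, the enzyme of early granules, read -1.29 with HPD and -1.97 in the control, and MMP9, a gelatinase of neutrophils and osteoclasts, 6.04 and 6.57. LCN2 and CAMP, of the same list, were even on day 5, with differences of 0.02 and -0.07. On day 3 they had read 7.08 and 7.82 in the control. The neutrophil list ran the other way on day 3, with a median of -0.38, and S100A8 then read 8.20 with HPD and 9.40 in the control. FPR2, a further formyl peptide receptor, was well above background only on the HPD array and was at least 6.43-fold higher.

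In the macrophage list CLEC4E, a receptor that senses dead cells and mycobacteria, read 2.66 on the HPD array and 0.94 on the control array, and its 5 probes agreed within 1.72 and 1.77. MSR1, a scavenger receptor, VSIG4, a complement receptor of resident macrophages, and CHIT1, a chitinase of lipid-laden macrophages, were 2.89-fold, 3.09-fold and 2.74-fold higher. MMP12, macrophage elastase, read 6.44 with HPD and 5.21 in the control, and LGALS3, galectin-3, 6.75 and 5.57. These 2 genes and LPL were higher with HPD on every day, MMP12 by 2.25 on day 3 and 1.47 on day 7 and LGALS3 by 1.39 and 1.12. FABP4, a fatty-acid binding protein of macrophages and fat cells, went against the list at 2.44 with HPD and 3.17 in the control.

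LYVE1, a hyaluronan receptor of lymphatic vessels and tissue macrophages, gave no single answer. Its brighter probe read -0.32 with HPD and -3.003 in the control, while an overlapping probe read -2.89 and -2.66, a difference of -0.22. The sequences share 20 bases, written in capitals, and lie at chr1:152333598-152333657 and chr1:152333638-152333697.
LYVE1 probe 1: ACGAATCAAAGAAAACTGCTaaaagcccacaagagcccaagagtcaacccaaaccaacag
LYVE1 probe 2: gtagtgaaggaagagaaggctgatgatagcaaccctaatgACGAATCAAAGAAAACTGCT

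Lymphocyte lists were higher by less and mostly at dim signals. Of 18 T cell genes measured, 2 were at least 2-fold higher and 0 lower, and the median of 0.48 came to 0.14 under normexp. CD3G and CD3E, chains of the T cell receptor complex, had differences of 1.38 and 1.27, which came to 0.94 and 0.07 under normexp. B cell and plasma cell genes (8 measured, 2 at least 2-fold higher, median 0.41), eosinophil and mast cell genes (8 measured, 1 higher, median 0.34) and the 3 cytotoxic cell genes (1 higher, median 0.95) are too few to describe a population. None of the 11 antigen presentation genes was 2-fold apart, yet their median was 0.51. Interferon response genes had a median of 0.37 that turned to -0.01 under normexp, where the median of all features was -0.09.

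Lipid genes included several known from lipid-loaded macrophages. Of 25 measured, 5 were at least 2-fold higher and 0 lower, with a median of 0.31. LPL, lipoprotein lipase, read 2.40 on the HPD array and 0.94 on the control array, PLIN2, which coats lipid droplets, 3.27 and 1.82, and DGAT2, which makes triglyceride, 1.55 and 0.15. Each was about as far apart as the next, between 2.64-fold and 2.74-fold. HSD11B1, which activates cortisol, was 2.89-fold higher on its brightest probe, but its 5 probes ran from -0.37 to 1.53. CH25H, which makes 25-hydroxycholesterol, had a difference of 1.06. Red cell and platelet genes had a median of 0.46 with 1 of 15 at least 2-fold higher, HEMGN, a nuclear protein of erythroid precursors (1.95 with HPD and 0.88 in the control). The part of blood cells in the other lists was not tested.

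Genes of the mineralising matrix were lower with HPD. Of 28 measured, 9 were at least 2-fold lower (32.1%, against 1.68% of all features) and 3 higher, 22 lay below 0, and the median was -0.56. DMP1, dentin matrix protein, a product of osteocytes, read -0.68 on the HPD array and 1.58 on the control array, 4.82-fold lower. Its 5 probes, whose starts lie within 5 bases of each other, gave -2.29 to -2.10. IBSP, bone sialoprotein, read 4.76 with HPD and 6.85 in the control (4.26-fold lower), and OMD, osteomodulin, 1.33 and 3.51 (4.54-fold lower). PHEX, the endopeptidase whose loss causes phosphate wasting, and PTH1R, the parathyroid hormone receptor, were 3.55-fold and 3.13-fold lower. COL1A1 and COL5A2, collagen chains of the bone matrix, read 4.03 and 4.23 with HPD, against 5.29 and 5.58 in the control.

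The 3 members that were at least 2-fold higher were MGP, MEPE and PHOSPHO1. MGP, matrix Gla protein, an inhibitor of mineralisation, read 3.72 with HPD and 2.25 in the control, with 9 probes from 1.36 to 1.56. MEPE, an acidic protein of osteocytes, and PHOSPHO1, a phosphatase that promotes mineralisation, were dim, and their differences of 1.33 and 1.09 came to 0.29 and 0.05 under normexp. ENPP1, which produces the mineralisation inhibitor pyrophosphate, was 1.94-fold higher. SPP1, osteopontin, made by macrophages as well as by bone cells, was among those near 0, at 8.51 with HPD and 8.28 in the control. On day 7 DMP1, IBSP and OMD read 1.65, 6.39 and 3.78 with HPD, against 0.65, 5.44 and 3.04 in the control, so each was then higher with HPD.

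The regulators of the osteoblast were less far apart than their matrix targets. Of 15 measured, 2 were at least 2-fold lower and 0 higher, with a median of 0.02. DLX5, a homeodomain factor, read -3.17 on the HPD array and -1.73 on the control array. Its 5 probes, whose starts lie within 5 bases of each other, lay between -1.50 and -0.76. RUNX2, the master factor of the lineage, read -1.46 with HPD and -0.76 in the control, while SP7, osterix, read 0.86 and 0.85. CREB3L1, which drives collagen secretion in osteoblasts, had a difference of -0.58. DLX6, the neighbour of DLX5 in mammals, was well above background only on the control array and was at least 2.73-fold lower with HPD.

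The small leucine-rich proteoglycans, which bind collagen fibrils, had a median of -0.62, with 3 of 10 at least 2-fold lower and 0 higher. Besides OMD these were OGN, at 2.17 on the HPD array and 3.73 on the control array, and ECM2, at 1.44 and 2.55. PODN, LUM and DCN followed with -0.96, -0.66 and -0.58. Unlike DMP1 and IBSP, OGN, ECM2, LUM and DCN were also lower with HPD on day 7, OGN at 3.92 against 4.91 and LUM at 7.19 against 8.07. FMOD, fibromodulin, was well above background only on the control array, at least 1.97-fold lower with HPD. Among 15 fibrillar and repair collagens, 2 were at least 2-fold lower and 1 higher, with a median of -0.16. COL11A2 read -0.96 with HPD and 1.16 in the control, COL5A1 6.48 and 7.40, and COL16A1 1.18 and 1.86. COL3A1, the collagen of granulation tissue, read 9.01 with HPD and 9.66 in the control on its brightest probe, but its 6 probes ran from -0.68 to 0.58. COL7A1, the anchoring fibril collagen, was 2.59-fold higher.

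Adhesion and contraction genes went both ways, with 2 of 18 at least 2-fold higher and 2 lower. Each is 11.1%, against 4.9% and 1.68% of all features. FN1, fibronectin, read 7.82 with HPD and 6.82 in the control, with 11 probes from 0.74 to 1.15, and DPT, dermatopontin, 0.86 and -0.50. ITGBL1 and ABI3BP were lower, at -1.05 and -1.51. ACTA2, the smooth muscle actin of myofibroblasts, had a difference of 0.46.

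Few genes of BMP and Wnt signalling were 2-fold apart, and those that were stood lower with HPD. BAMBI, a decoy receptor for BMP and TGF-beta, read 0.11 on the HPD array and 2.55 on the control array, 5.43-fold lower, and BMP4, a ligand, read -0.55 and 0.52. They were the 2 of 28 TGF-beta and BMP genes that were at least 2-fold lower (7.14%, against 1.68% of all features). The list's median was -0.20. DKK1, a Wnt inhibitor, read -1.07 with HPD and 0.75 in the control, and RSPO3, which strengthens Wnt signals, -1.17 and 0.36. They were the 2 of 27 Wnt genes at least 2-fold lower (7.41%), and FRZB, a secreted Wnt antagonist, came next at -0.98. In the list of Hedgehog, Notch, FGF, IGF and PDGF genes, IGF1 and PDGFD were 2.11-fold and 2.03-fold lower and PDGFB was 2.81-fold higher, with 32 measured. PDGFB was dim, and its difference of 1.49 came to 0.61 under normexp, where IGF1 and PDGFD gave -0.93 and -0.87.

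Vessel genes were split. Of 20 measured, 3 were at least 2-fold higher and 3 lower. TEK, the angiopoietin receptor, read -2.77 on the HPD array and -0.48 on the control array, VCAM1, an adhesion molecule for leukocytes, -1.58 and -0.05, and CLDN5, a tight junction protein, -1.77 and -0.76. RGS5, of pericytes, NRP1, a co-receptor for VEGF, and ESAM, a junction protein, were 2.15-fold, 2.10-fold and 2.02-fold higher. PECAM1, found on all endothelium, had a difference of 0.89, which came to 0.49 under normexp.

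In the list of oxidative stress and iron genes, 1 of 24 was at least 2-fold higher and 2 lower. SELENOP, a selenium carrier, read 4.87 on the HPD array and 6.73 on the control array, and CP, ceruloplasmin, 0.81 and 1.82. HP, haptoglobin, read 3.59 with HPD and 2.63 in the control, and MT3, a metallothionein, 5.47 and 3.87. CRYAB, a small heat shock protein, was the only one of 24 heat shock and unfolded protein genes that was 2-fold apart, at -1.85. ADAMTS9, a protease that cuts proteoglycans, had the lowest value of 26 proteases and inhibitors, -1.44. The lower end further held TF, transferrin (1.55 with HPD and 3.31 in the control), ECRG4, a secreted peptide precursor (-0.35 with HPD and 2.17 in the control), MAMDC2 (-1.49 and 0.72), RERG, a Ras-like growth inhibitor (-0.56 and 1.39), FMO1, a flavin monooxygenase (0.30 and 2.22), and CGREF1 (2.04 and 3.71).

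Growth and resorption genes were close to even. None of 33 cell cycle genes was 2-fold apart, with a median of 0.07, and MKI67, the proliferation marker, read 3.29 with HPD and 3.09 in the control. The same held for 14 osteoclast genes, with a median of -0.01, although on day 3 their median was 0.71. CTSK, the collagen-cutting protease of osteoclasts, read 6.27 with HPD and 6.01 in the control, ACP5, tartrate-resistant phosphatase, 4.39 and 5.01, and CA2, carbonic anhydrase 2, 4.34 and 3.45. Ribosomal protein genes formed a narrow band, all 28 between -0.36 and 0.08 with a median of -0.15, and the 13 reference genes had a median of 0.16.

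The other days give a scale for these differences. Features were sorted by the day 3 and day 7 arrays alone into a later-rising set, at least 2-fold higher on day 7 than on day 3 under both treatments, and an early-high set, at least 2-fold lower on day 7 than on day 3 under both. The day 5 difference played no part in the choice, but membership required a signal well above background on both day 5 arrays. Of 496 later-rising features, 394 were lower with HPD on day 5 (79.4%), 120 of them at least 2-fold (24.2%, against 1.68% of all features), and 18 were at least 2-fold higher. Of 572 early-high features, 515 were higher with HPD (90.0%), 224 of them at least 2-fold (39.2%, against 4.9%), and 3 were at least 2-fold lower. Their median differences were -0.60 and 0.83. Of the early-high features, 203 carry a symbol. Many of the others are serially numbered array entries with similar time courses, so the 572 are not independent. Among named genes alone, which overlapping unnamed probes cannot inflate, 214 of 256 later-rising genes were lower (83.6%), 61 at least 2-fold (23.8%, against 1.7% of named genes), and 179 of 203 early-high genes were higher (88.2%), 72 at least 2-fold (35.5%, against 3.79%). Of the genes described above, the later-rising set held DMP1, IBSP, OMD, PHEX, PTH1R, COL5A2, COL11A2, OGN, ECM2, ECRG4 and MAMDC2, and the early-high set EGLN3, CXCL8, CXCL5, CCL4, IL1B, IL1RN, IL1R2, IFNG, ARG1, IDO1, S100A8, CLEC4E, LPL and PLIN2.

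The median level of the later-rising set with HPD was -1.90 on day 3, -1.18 on day 5 and -0.30 on day 7. In the control it was -1.99, -0.66 and -0.48 on the same days. Most of the control's increase thus lay between days 3 and 5, and more of the increase with HPD between days 5 and 7. The early-high set had median levels with HPD of -0.71, -1.71 and -2.66 on days 3, 5 and 7, against 0.15, -2.58 and -2.99 in the control. By these medians the HPD array of day 5 stood nearer to the day 3 arrays than the control array of day 5 did, in both sets. The later-rising set held 37.2% of all features that were at least 2-fold lower on day 5, against 2.59% of all features, and the early-high set held 23.9% of those at least 2-fold higher, against 2.98%.

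**Figure D3:**
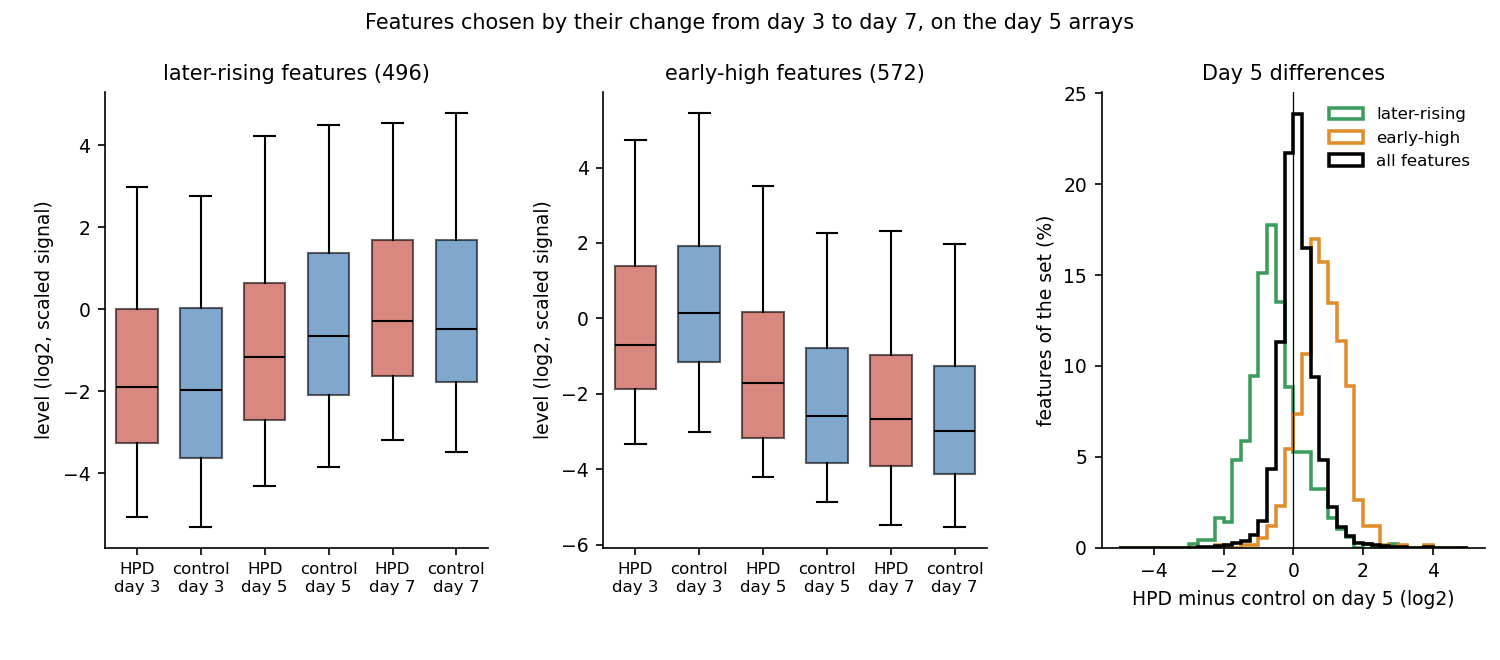
Levels (log2, scaled signal) on the 6 arrays of features chosen on the day 3 and day 7 arrays, as boxes of median and quartiles with whiskers at the 5th and 95th percentiles over features, and histograms of their day 5 differences (HPD minus control, log2) as a percentage of each set. In the histograms the 496 later-rising features centre at -0.60, with 394 below 0, and the 572 early-high features at 0.83, with 515 above 0.

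Some genes did not follow their set. Among later-rising features, DPT, IL12B and RGS5 were higher with HPD on day 5, by 1.361, 1.483 and 1.104. Among early-high features, CP, FABP4 and IL6 were lower, at -1.02, -0.74 and -0.30. Most of the 2-fold features lay outside both sets. Over all features, 3.57% were at least 2-fold higher and 3.02% lower on day 3, and 1.66% and 0.862% on day 7. Of the features 2-fold higher on day 5, 111 were also at least 2-fold higher on day 3 and 140 at least 2-fold lower there, out of 917 measured, and on day 7 the counts were 84 and 29 of 829. Of those 2-fold lower on day 5, 8 were at least 2-fold higher and 7 lower on day 3, of 315, and 16 and 7 on day 7, of 305. The 2-fold differences of day 5 were thus for the most part not found at that size on the other days.

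**Figure D4:**
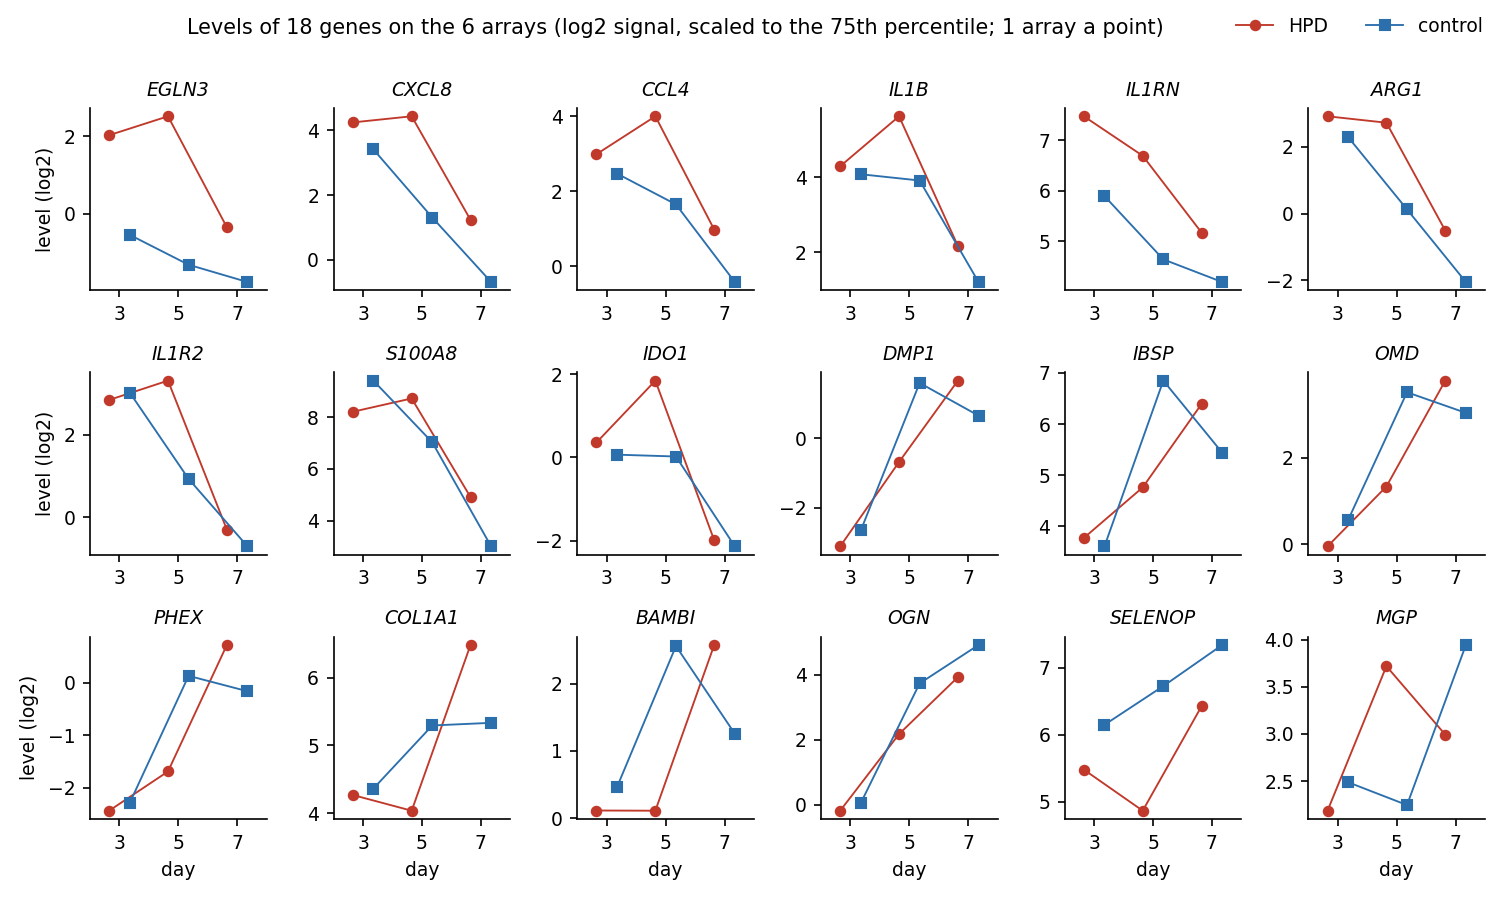
Levels (log2, relative to each array's 75th percentile) of 18 genes on days 3, 5 and 7, 1 array a point, for HPD and for control. The vertical scale differs between panels, and the panels show the day 5 gaps given in the text, such as EGLN3 at 2.51 with HPD and -1.32 in the control.

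How often each day 5 array was the extreme of all 6 was counted. Of the 939 features at least 2-fold higher, the HPD day 5 array was the highest of all 6 arrays in 396 (42.2%, against 13.9% of all features), and the control day 5 array the lowest of all 6 in 446 (47.5%, against 23.9%). Of the 323 lower ones, the HPD day 5 array was the lowest in 98 (30.3%, against 11.7%), and the control day 5 array the highest in 166 (51.4%, against 9.90%). Choosing features by the day 5 gap makes the day 5 arrays the extremes more often by construction. The excess over the shares of all features is therefore not a result. Distances from the median of the 4 other arrays were also compared. The HPD day 5 array was farther than the control day 5 array in 429 of the higher features (45.7%) and 92 of the lower ones (28.5%), against 44.4% of all features. IDO1 was highest on the HPD day 5 array, at 1.85 against at most 0.36 elsewhere. RBM28, TADA1 and UCHL1 read -0.74, -1.05 and -0.27 on the control day 5 array and no more than -2.83 on each of the other 5, so their large differences rest on that array. UCHL1 has 6 probes, which ran from -3.38 to 0.17, and RBM28 and TADA1 have 1 each.

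Genes measured on only 1 of the arrays add bounds. On the HPD array alone 311 features were well above background and on the control array alone 972, while the lowest signal counted as well above background was -4.98 with HPD and -5.53 in the control. Bounds of at least 2-fold numbered 175 higher and 75 lower with HPD. Besides FPR2, list members with the largest bounds higher with HPD included GATA3, a T helper cell factor, at least 3.00-fold. NEFM, a neurofilament, and BMP6 were at least 2.20-fold and 2.07-fold higher. Lower with HPD, besides DLX6 and FMOD, were SOX9, the cartilage factor, by at least 2.15-fold, PYGM, muscle phosphorylase, by at least 2.08-fold, and COL22A1 by at least 1.97-fold.

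The background differed between the arrays. The negative control spots had an SD of 14.2 intensity units on the HPD array and 2.04 on the control array, and 81.5% and 84.4% of spots were well above background. With the features in 5 equal classes of brightness, the median difference of the dimmest was 0.21 and under normexp -0.22, while that of the brightest was -0.07 and -0.02. Under normexp 238 features were at least 2-fold higher (1.24%) and 124 lower (0.647%), and the shares were 1.85% and 2.09% with an offset of 0, 3.23% and 1.24% among bright probes, and 6.31% and 2.93% with no filter on dim probes. With an offset of 50, the median of all features was -0.09. The macrophage, neutrophil and hypoxia medians were then 0.79, 0.57 and 0.49, and those of bone matrix and the proteoglycans -0.50 and -0.55. The medians of chemokines, cytokines and receptors came to 0.08, 0.04 and 0.04. CXCL8, IL1B, IL1RN, CCL4 and ARG1, at bright signals, gave 3.07, 1.77, 2.13, 2.32 and 2.45.

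**Figure D5:**
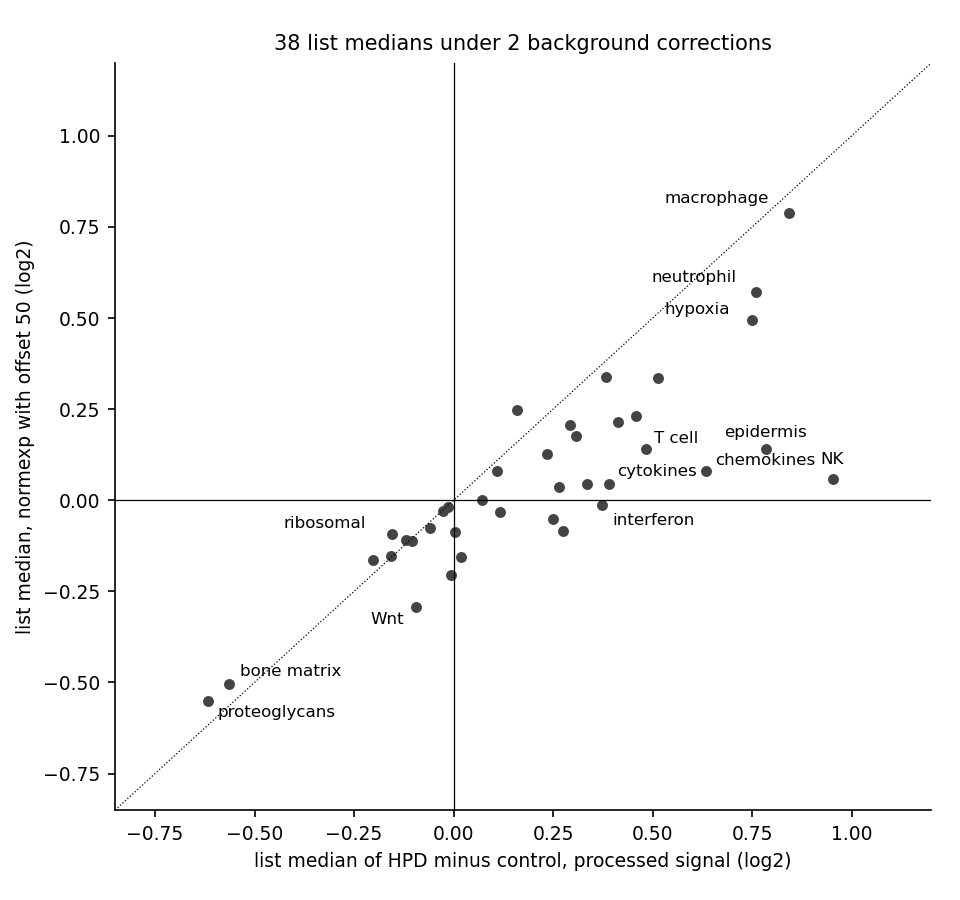
Median day 5 difference (HPD minus control, log2) of 38 gene lists with the processed signal (horizontal axis) and with normexp at an offset of 50 (vertical axis), with the diagonal of equal values dotted. The bone matrix, proteoglycan and macrophage lists lie near the diagonal, and the chemokine, cytokine and cytotoxic cell lists fall to between 0.04 and 0.08.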

How the data were processed

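The deposited values are spot intensity on a linear scale from single-dye (Cy3) Agilent rabbit arrays; per the file headers, Agilent Feature Extraction 10.5.1.1 subtracted background, detrended each array and put substitute values on dim spots, and the files record no step between arrays. Per the file headers, both day 5 arrays and both day 7 arrays lie on 1 slide and the day 3 arrays on another, so that day 3 and its slide cannot be told apart.

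The log2 intensity of non-control probes was centred, array by array, at the 75th percentile. Outlier spots cost 24 probes; spots of 1 probe were averaged, and a gene was read from its brightest probe over the 6 arrays. Symbols came from the array's columns and RefSeq names for mOryCun1.1, with no position taken from that build. In all, 22842 probes had 1 symbol and 20761 had none or, in 21 cases, several. Positions are on oryCun2. Where 1 array was not well above background, an "at least" fold was computed against the dim value or the array's detection floor, whichever was higher.

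Genes named are the 15 highest and 15 lowest by the smaller difference of both background corrections, up to 8 members of each of 38 lists and 4 the other way, the 5 largest bounds each way, and a fixed set, of which ELANE was not named on the array. Some genes under this rule are not reported here. The members and lists were chosen with earlier results of these data known. Normexp used limma 3.58.1 and data.table (version 1.17.8) in R 4.3.3, tables pandas 2.3.3 and numpy 2.4.6, plots matplotlib 3.10.9 in Python 3.11.15, and counting and list scripts were tested on simulated data. In all, 7 alternatives were run. Array number and not depth limits precision.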

Additional observations from a re-analysis of the deposited data

Results flagged for a closer look

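With 1 array a side, a value is listed here when the day 5 difference and that of another day lie on opposite sides of 0, each by at least 2-fold for a gene, or by more than the software's median error of 0.21 for a list median. In each case the difference between days was not tested, and day 3 was measured on another slide.

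The bone matrix list had a median of 0.501 on day 7 and -0.563 on day 5. Its members DMP1 (1.004 on day 7 and -2.269 on day 5) and COL1A1 (1.15 and -1.257) turned likewise, as did BAMBI (1.314 and -2.44) and MAMDC2 (1.124 and -2.212). DPT turned the other way, at -2.86 on day 7 and 1.361 on day 5, and MEPE stood at -2.367 on day 3 and 1.335 on day 5.

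These lists of leukocyte genes had medians below 0 on day 3 and above 0 on day 5, while the macrophage and T cell lists were above 0 on both days (0.456 and 0.108 on day 3). The medians of day 3 and day 5 were -0.377 and 0.76 for neutrophils, -0.886 and 0.335 for eosinophils and mast cells, -0.446 and 0.413 for B cells and plasma cells, and -0.27 and 0.513 for antigen presentation. Among their genes and related ones, on day 3 and day 5 in turn, S100A8 gave -1.2 and 1.692, S100A9 -1.528 and 1.485, LTB -1.088 and 1.233, and ALOX5AP -1.714 and 1.163.

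The red cell and platelet list had a median of -1.755 on day 3 and 0.459 on day 5, and HEMGN gave -2.271 and 1.069. BNIP3L, which red cell precursors also use to clear mitochondria, gave -1.072 and 1.121. HSD11B1 gave -1.391 and 1.531, and TEK 1.459 on day 3 and -2.287 on day 5.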

How the results depend on the processing

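No paired analysis was possible because each treatment and day has 1 array, and no array could be left out. Over 7 alternatives, and over 1 more chosen after seeing the data that merged overlapping unnamed probes, 254 values of counts and list medians stayed near the reported one, 38 moved and 6 reversed; for named genes 761 stayed, 95 moved and 0 reversed. The cause of these moves was not tested. Features at least 2-fold higher numbered 238 with normexp at an offset of 50, 354 at an offset of 0, 350 with bright probes only and 1470 with no filter on dim probes; lower ones numbered 124 (offset 50), 134 (bright) and 682 (no filter). The share of 2-fold features that were higher was 74.4% as reported, 65.7% and 47.0% with normexp at offsets of 50 and 0, 64.9% with quantile normalization and 64.95% with a median shift, where the medians of all features were -0.09, -0.14, 0.02 and 0.01. Interferon (-0.012 and -0.053), skeletal muscle (-0.083 and -0.143) and brain lists (-0.051 and -0.144) had medians below 0 at offsets of 50 and 0, against 0.37, 0.28 and 0.25 as reported. At both offsets the medians were 0.141 and 0.177 for T cells, 0.044 and 0.043 for cytokines, 0.079 and 0.102 for chemokines, 0.037 and 0.04 for receptors, 0.23 and 0.236 for red cells, 0.044 and 0.031 for eosinophils, 0.059 and 0.073 for cytotoxic cells, and 0.14 and 0.225 for epidermis. The early-high set gave 0.536 and 0.465, hypoxia 0.494 at offset 50, and at offset 0 the osteoblast regulators gave -0.33, cartilage -0.346 and Wnt genes -0.47. With bright probes only, medians were 1.053 for the early-high set, 0.548 for eosinophils, 1.055 for macrophages, 1.579 for cytotoxic cells, 1.522 for chemokines and 0.326 for epidermis, which gave 0.543 with no filter. With a gene's probes averaged, cytotoxic cells gave 0.685 and proteases 0.212.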

Other observations

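Of 10137 features with no gene symbol, 596 were at least 2-fold higher with HPD and 169 lower, and with overlapping probes merged, 423 and 133 of 8235, against 343 and 154 of 9043 named genes. The remaining lists stand against 4.9% of all features 2-fold higher and 1.68% lower. Among these were skeletal muscle genes (22 measured, 1 at least 2-fold higher and 1 lower) and brain and meninges genes (15 measured, 3 higher or 20.0%, and 1 lower or 6.67%). Epidermis genes (6 measured, 1 higher or 16.7%), cartilage genes (11 measured, 0 apart on the brightest probe) and complement and coagulation genes (22 measured, 2 higher and 1 lower) were further lists. The last were interferon response genes (11 measured, 1 higher) and tooth formation genes (5 measured, 1 lower). In the cartilage list COL2A1 differed by 0.14 on its brightest probe, but its 6 probes ran from -1.70 to 0.14. The brain, skeletal muscle and interferon medians turned below 0 under normexp, where the median of all features was -0.09.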
